A study of Mus musculus with 32 samples.

Results

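Superoxide dismutases and the enzymes that remove hydrogen peroxide were followed in the spinal cord of G93A mice, which carry a mutant human SOD1 transgene and serve as a model of amyotrophic lateral sclerosis (ALS). The members were 9 mouse genes chosen by name from the 42524 genes of the count table, namely the superoxide dismutases Sod1, Sod2 and Sod3, the copper chaperone Ccs, catalase (Cat), the glutathione peroxidases Gpx1 and Gpx4, and the peroxiredoxins Prdx1 and Prdx6. RNA from 32 mice was sequenced, with 4 mice in each of 8 groups: wild-type (WT) and G93A mice, each untreated or given OKN-007, at 90 and at 155 days. G93A mice were of the line B6-Tg(SOD1-G93A)1Gur/J on the C57BL/6J background, and WT littermates served as controls. OKN-007 is a nitrone compound, given in the drinking water in the study. The labels give the earlier time as 90 days, and the study's methods give 95 days of age.

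The model has limits that bear on these genes. The line expresses a human SOD1 transgene in many copies on top of the mouse gene, so Sod1 here is the mouse gene in mice that also make the mutant human protein. The transgene is not a row of the table, and reads of human SOD1 that aligned to mouse Sod1 cannot be told apart from mouse reads. By the study's methods the animals were predominantly female, and Xist was between 244 and 446 CPM (counts scaled to a common library size with TMM factors, the scale of all levels given here) in the 32 mice. Pieces of spinal cord were sequenced rather than sorted cells, so fewer cells of a type and less RNA per cell cannot be told apart.

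Superoxide is made mainly as a by-product of respiration and by oxidases. Superoxide dismutases convert it into hydrogen peroxide and oxygen, with Sod1 in the cytosol and the space between the mitochondrial membranes, Sod2 in the mitochondrial matrix and Sod3 outside the cell. Hydrogen peroxide is then removed by catalase in peroxisomes, by glutathione peroxidases and by peroxiredoxins, which use glutathione or thioredoxin as reductants. In the nervous system, glial cells and neurons hold these enzymes in different proportions, and mutations of human SOD1 cause a familial form of ALS.

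The coding positions on which these proteins turn are shown first, read from GENCODE M21 transcripts on GRCm38, with 12 bases on either side in lower case and the codon in capitals. In Sod1 the capitals mark the glycine codon at the position that the G93A mutation changes in the human protein, codon 94 from the start codon of 154 in all, in exon 4 of 5 (chr16:90225185-90225187). In Gpx1 (codon 47, exon 1 of 2, chr9:108339451-108339453) and Gpx4 (codon 73 of a transcript with 197 codons, exon 3 of 7, chr10:80054737-80054739) they mark an in-frame TGA that is read as selenocysteine rather than as a stop. In Prdx1 (codon 52, exon 3 of 6, chr4:116691823-116691825) and Prdx6 (codon 47, exon 2 of 5, minus strand, chr1:161247368-161247370) they mark the cysteine that attacks the peroxide.
Sod1: gctggaaaggacGGTgtggccaatgtg
Gpx1: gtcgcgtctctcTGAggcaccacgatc
Gpx4: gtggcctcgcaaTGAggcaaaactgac
Prdx1: tttacttttgtgTGTcccacggagatc
Prdx6: tttaccccagtgTGCaccacagaactt

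Between 19701722 and 30138257 counts per mouse fell on genes, and 3 counts in the smallest library corresponded to 0.152 CPM, a limit that covers counting error only. Every member had at least 318 counts in every mouse, so none was near this limit, and all 9 passed the filter on low counts in every comparison. Two-sided quasi-likelihood tests of edgeR were run across the whole table, and p-values were adjusted by the Benjamini-Hochberg method over every gene that passed a filter on low counts. A gene was called when its adjusted p was under 0.05. Markers of spinal cord cells were present in every mouse, with a summed level of at least 5474 CPM for 8 neuron, 4551 CPM for 8 astrocyte and 20160 CPM for 8 oligodendrocyte markers. Hox genes that mark the level of the cord moved with genotype at 155 days. The mean log2(CPM + 1) of 9 Hox genes of the caudal spinal cord was then between 3.78 and 4.56 in the 8 WT mice and between 1.62 and 3.595 in the 8 G93A mice, without overlap and lowest in G93A untreated replicates 9 and 10. Whether pieces of cord were taken at different levels was not tested, and fits with this score as a covariate are given beside the results. Without overlap between genotypes, these fits rest on extrapolation at 155 days. A call kept or lost in them cannot settle the part of cord level. At 90 days the genotypes overlapped in the score, with the lowest values, 1.948 and 1.835, in G93A OKN-007 replicates 13 and 14. Single libraries also stood apart. Summed Schwann cell markers were at 1360 CPM in WT untreated replicate 3 at 90 days and between 110 and 368 CPM in the other mice. Traces of liver genes reached a summed 187 CPM in G93A untreated replicate 12 and 130 CPM in G93A OKN-007 replicate 15 at 155 days. The labels name no sequencing batch.

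Levels of the 9 genes can be compared with each other only per transcript length. As CPM per kilobase of the longest coding transcript, averaged over the 32 mice, Sod1 was at 462, Gpx4 at 392, Prdx6 at 173, Gpx1 at 103, Prdx1 at 61.5, Cat at 38.7, Sod2 at 27.4, Ccs at 26.6 and Sod3 at 5.23. Neighbours in this order overlapped in their ranges over the mice, apart from Sod3, whose highest mouse was at 8.54 where the lowest Ccs value was 18.5. These ranges and averages pool all 8 groups. For Prdx6 the group means were 363 and 357 in untreated and treated G93A mice at 155 days and 91 to 133 in the other groups. The lowest Gpx4 mouse was at 283. The order rests on the transcript used, at its top as well, since with the shortest coding transcript Gpx4 came first at 530, before Sod1 at 462, Prdx6 was at 431, Sod2 at 356, Prdx1 at 231 and Cat at 130 CPM per kilobase. The sequence of dismutases by abundance, Sod1, then Sod2, then Sod3, was the same with either length.

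**Figure D1:**
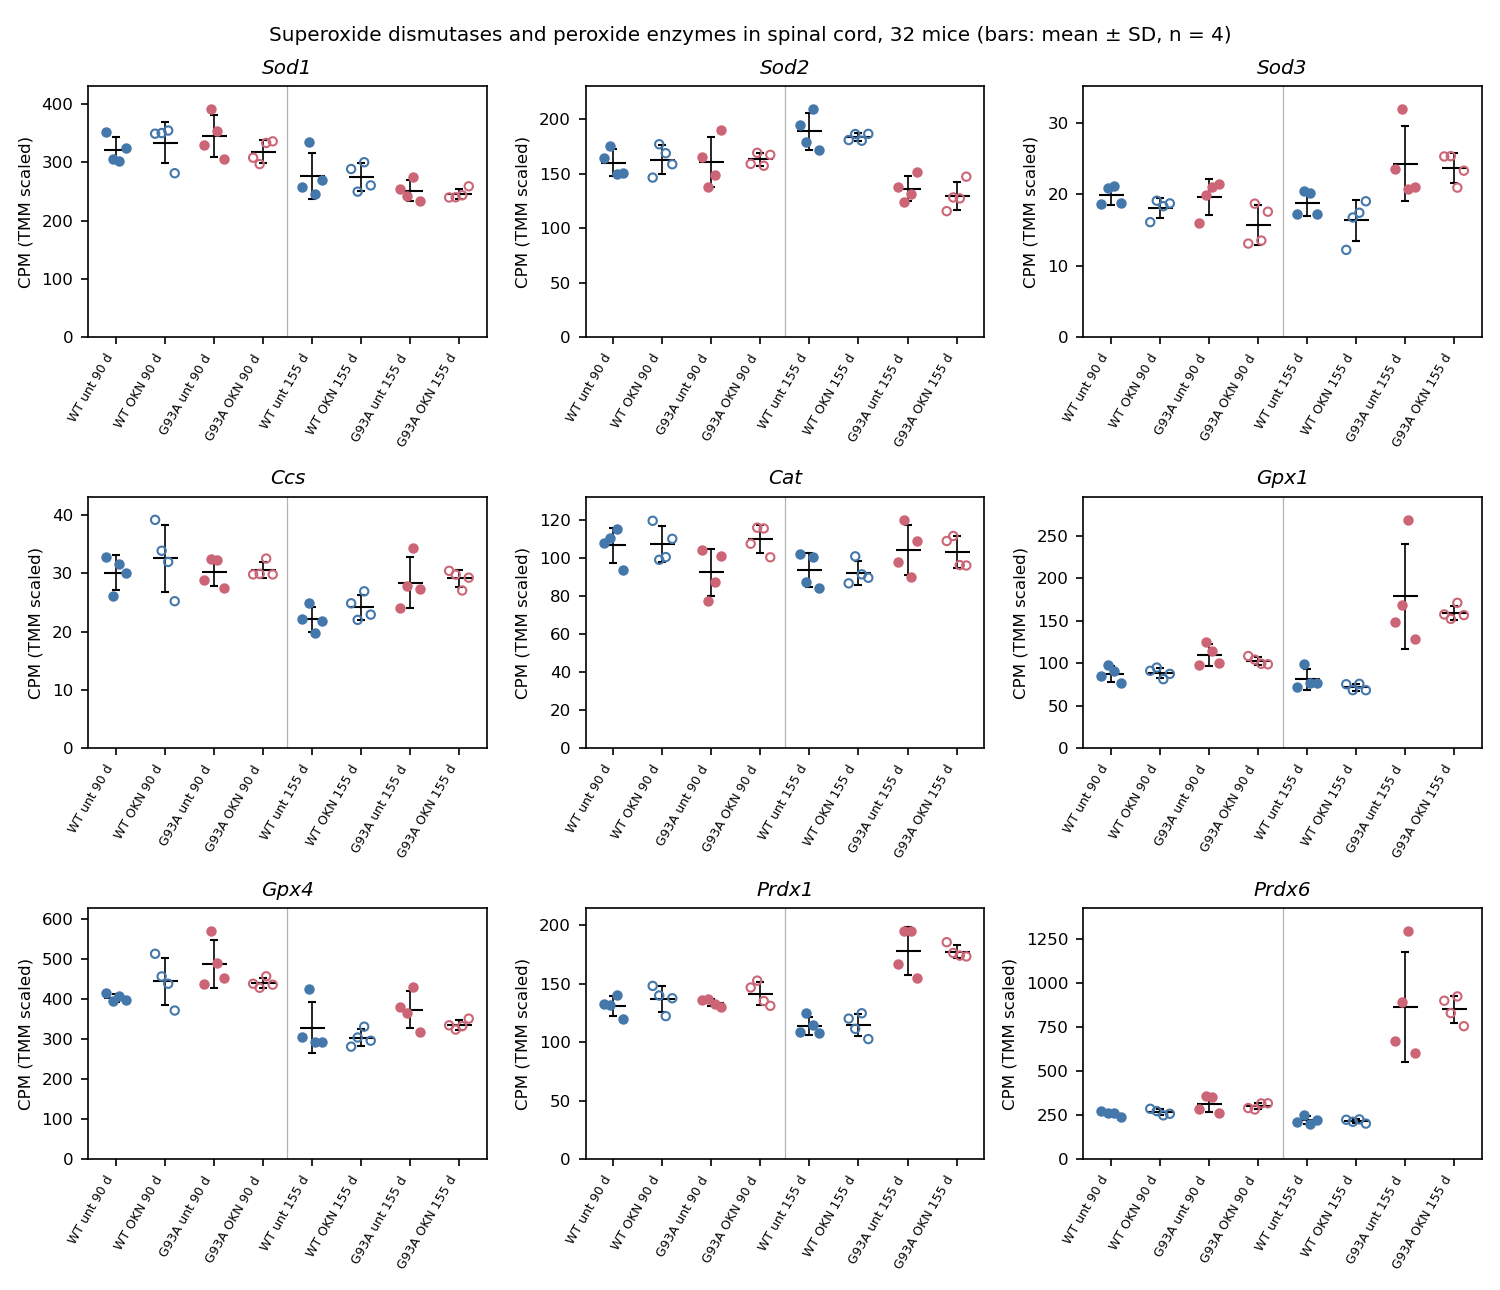
CPM of each of the 9 genes (vertical axes, starting at 0) in the 32 mice, 4 per group, with WT in blue, G93A in red, untreated mice as filled and OKN-007 treated mice as open circles, 90 days left and 155 days right of the grey line, and mean ± SD in black. Prdx6, Gpx1 and Prdx1 stood higher in all 8 G93A mice at 155 days than in all 8 WT mice, Sod2 stood lower, and Sod1 overlapped between genotypes.

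At 155 days, untreated G93A mice had 5 of the 9 genes higher and 1 lower than untreated WT mice. Prdx6, Gpx1, Prdx1, Sod3 and Ccs rose, Sod2 fell, and Sod1, Cat and Gpx4 did not pass the test. In comparisons of genotypes, rose and fell mean higher and lower than in WT mice of the same age. Of all 18675 genes tested, 39.5% were called in this comparison, 21.3% higher and 18.2% lower, so a call by itself was common. Overlap between groups was looked at for the 9 genes only, and the share of all genes without overlap was not counted. The median log2 fold change of the 9 genes was 0.40, where that of all genes was 0.000155.

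Sod1, the copper and zinc enzyme of the cytosol (GRCm38 chr16:90220754-90226329, plus strand), did not differ detectably between genotypes. At 155 days it was at 257, 334, 246 and 270 CPM in untreated WT mice and at 254, 242, 275 and 234 CPM in untreated G93A mice. The groups overlapped, with means of 277 ± 39.6 and 251 ± 18 (SD, n = 4). The log2 fold change was -0.10 ± 0.096 (SE, adjusted p = 0.458 by edgeR), and its 95% interval ran from -18.5% to 7.56%. Its sign rested on WT replicate 2, the highest of these mice, without which the log2 difference was 0.03 (adjusted p = 0.764).

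Ccs, which loads copper into Sod1 (chr19:4825366-4839332, minus strand), was higher in G93A mice. Untreated WT mice had 22.1, 24.9, 19.7 and 21.8 CPM and untreated G93A mice 24.1, 27.8, 34.4 and 27.2 CPM, so that only the lowest G93A mouse lay within the WT range. Ccs was higher by 0.40 ± 0.10 on the log2 scale (SE, adjusted p = 0.00392), or 1.32-fold. Folds are given as fitted by edgeR, not as ratios of the means. Group means were 22.14 ± 2.16 CPM in untreated WT and 28.37 ± 4.33 CPM in untreated G93A mice. At 90 days they were 30.1 ± 2.95 and 30.25 ± 2.45 CPM (SD, n = 4), so the G93A mean at 155 days was not above its 90-day level. As a ratio within each mouse at 155 days, Ccs was at 0.0804 ± 0.0046 of the CPM of Sod1 in untreated WT mice. In untreated G93A mice it was at 0.113 ± 0.0127 (SD, n = 4). At 90 days the ratio was 0.0938 ± 0.00791 in untreated WT and 0.0878 ± 0.00372 in untreated G93A mice. The ratio is to the mouse Sod1 row and leaves out the human SOD1 transgene, so it is not chaperone per total SOD1.

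Sod2, the manganese enzyme of the mitochondrial matrix (chr17:13006846-13040063, plus strand), was the member that fell. Untreated WT mice had 194, 179, 209 and 172 CPM at 155 days and untreated G93A mice 137, 124, 131 and 152 CPM. All 4 G93A mice lay below all 4 WT mice, with a log2 fold change of -0.42 ± 0.082 (adjusted p = 0.000468), or 0.747 times the WT level as fitted. Leaving out any 1 mouse kept it between -0.48 and -0.36. Group means were 188.6 ± 16.7 CPM in untreated WT and 136.2 ± 11.7 CPM in untreated G93A mice. At 90 days they were 160 ± 12.1 and 160.5 ± 22.8 CPM (SD, n = 4). The WT mean was thus higher, and the G93A mean lower, at 155 days than at 90 days.

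Sod3, the secreted dismutase (chr5:52363791-52371418, plus strand), rose by a smaller margin. Untreated WT mice had 17.3, 20.5, 20.2 and 17.2 CPM and untreated G93A mice 23.5, 31.9, 20.7 and 21 CPM. The groups did not overlap, but the lowest G93A mouse was just above the highest WT mouse. The log2 fold change was 0.41 ± 0.14 (adjusted p = 0.0203). It was lost without WT replicate 1 (0.37, adjusted p = 0.061), without G93A replicate 10 (0.28, adjusted p = 0.0932) and with this Hox score as a covariate (0.14, adjusted p = 0.552).

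Among the enzymes that remove hydrogen peroxide, Prdx6 changed most. Prdx6 is a peroxiredoxin with a single catalytic cysteine that also acts on phospholipids (chr1:161240112-161251219, minus strand). Untreated WT mice had 213, 254, 200.5 and 223 CPM at 155 days and untreated G93A mice 670, 894, 1296 and 603 CPM. Every G93A mouse was above 2 times the highest WT mouse. Prdx6 rose by 2.0 ± 0.17 on the log2 scale (adjusted p = 2.27e-08), a fitted difference of 4.00-fold. The group means were 223 ± 23.0 and 866 ± 313 CPM (SD, n = 4). The SD in G93A mice was set largely by replicate 11, without which the log2 fold change was 1.75 (adjusted p = 1.1e-09).

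Gpx1, the cytosolic selenoenzyme that reduces hydrogen peroxide with glutathione (chr9:108338903-108340343, plus strand), was next. Untreated WT mice had 72.0, 99.5, 77 and 76.4 CPM and untreated G93A mice 149, 169, 269 and 128 CPM, without overlap. The log2 fold change was 1.18 ± 0.16 (adjusted p = 1.32e-05), or 2.26-fold. Replicate 11 was again the highest G93A mouse, and WT replicate 2 the highest WT mouse. Without replicate 11 the log2 fold change of Gpx1 was 0.92 (adjusted p = 2.43e-06).

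Prdx1, a cytosolic peroxiredoxin that draws its electrons from thioredoxin (chr4:116685544-116700822, plus strand), also rose without overlap. Untreated WT mice had 109, 125, 115 and 108 CPM and untreated G93A mice 167, 195, 195 and 155 CPM. Its log2 fold change was 0.68 ± 0.084 (adjusted p = 3.10e-06), or 1.61-fold, and kept between 0.64 and 0.75 when any 1 mouse was left out.

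Cat and Gpx4 did not pass the test. Catalase, the heme enzyme of peroxisomes (chr2:103453849-103485160, minus strand), was at 102, 87.3, 100.3 and 84.3 CPM in untreated WT and at 97.9, 119.9, 90.0 and 109 CPM in untreated G93A mice, which overlapped. Its log2 difference was 0.20 ± 0.087 (adjusted p = 0.0721), and without G93A replicate 11 it was 0.27 (adjusted p = 0.0172). Gpx4, which reduces lipid peroxides in membranes and whose loss permits ferroptosis (chr10:80047166-80056439, plus strand), was at 306, 425, 292 and 292 CPM in WT and at 381, 366, 429 and 317 CPM in G93A mice. A single WT mouse, replicate 2, lay within the G93A range. The log2 difference of Gpx4 was 0.23 ± 0.11 (adjusted p = 0.121), and without that WT mouse it was 0.40 (adjusted p = 0.00134).

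Treated mice gave a second set of values, from other animals than those of the untreated groups. Both comparisons came from the same fit of all mice of this age, with a shared filter, scaling and estimate of spread. Their p-values are therefore not independent of each other. Against OKN-007 treated WT mice, OKN-007 treated G93A mice at 155 days had 6 of the 9 genes higher and 1 lower, where 41.5% of all genes tested were called. Prdx6 was at 225, 213, 227 and 203 CPM in treated WT and at 899.98, 830, 924 and 756 CPM in treated G93A mice, a log2 fold change of 2.05 ± 0.17 (adjusted p = 1.38e-08). The treated G93A mice lay closer together than the untreated ones, with an SD of 76.0 CPM. Gpx1 was at 75.4, 68.5, 75.9 and 68.4 CPM in treated WT and at 157, 152, 171 and 157 CPM in treated G93A mice, a log2 fold change of 1.22 ± 0.16 (adjusted p = 7.39e-06). Prdx1 rose by 0.70 ± 0.084 (adjusted p = 1.91e-06), from 115 ± 9.77 to 177 ± 5.61 CPM (SD, n = 4).

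The dismutases and Ccs had the same directions in treated mice. Sod2 was at 181, 186, 180.06 and 186 CPM in treated WT and at 116, 128, 127 and 147 CPM in treated G93A mice, a log2 fold change of -0.43 ± 0.082 (adjusted p = 0.000357). Sod3 was at 12.2, 16.8, 17.4 and 19.0 CPM against 25.3, 25.3, 20.9 and 23.3 CPM, a rise of 0.61 ± 0.14 (adjusted p = 0.00135) that was lost with the Hox score as a covariate (0.36, adjusted p = 0.0991). Ccs was at 24.8, 22, 26.9 and 22.9 CPM against 30.4, 29.8, 27 and 29.2 CPM, now without overlap, a rise of 0.34 ± 0.10 (adjusted p = 0.0104). Sod1 again overlapped between genotypes, at -0.09 ± 0.096 on the log2 scale (adjusted p = 0.491).

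Cat passed the test in treated mice, narrowly, while Gpx4 did not. Cat was at 86.6, 100.8, 91.3 and 89.5 CPM in treated WT and at 109, 111, 96.2 and 96.0 CPM in treated G93A mice, which overlapped, with a log2 fold change of 0.24 ± 0.087 (adjusted p = 0.0353). Its call was lost with RLE factors (adjusted p = 0.0537), with library totals only (adjusted p = 0.0553), with no filter (adjusted p = 0.069), with all 32 mice in 1 fit (adjusted p = 0.0761), with the Hox score as a covariate (0.13, adjusted p = 0.423) and when 5 of the 8 mice were left out 1 at a time, namely WT replicates 5, 7 and 8 and G93A replicates 13 and 14 (adjusted p from 0.0678 to 0.141). Gpx4 was at 0.22 ± 0.11 (adjusted p = 0.130).

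Cell type markers moved with genotype at the same age. In untreated mice at 155 days, 9 of 9 microglia markers rose, their summed level going from 147-184 CPM in WT to 592-976 CPM in G93A mice, and 7 of 8 astrocyte markers rose, from 4739-5207 to 13170-17190 CPM, with Gfap up by 2.4 on the log2 scale. All 8 neuron markers fell, from 12780-15920 to 6692-9110 CPM, and 7 of 8 motor neuron markers fell, from 267-334 to 155-175 CPM. Of the oligodendrocyte markers 1 of 8 rose, of fibroblast markers 3 of 5 tested, and of endothelial, red blood cell, liver, Schwann cell and muscle markers none was called. How far these markers account for the members' changes was not tested. With the Hox score as a covariate, Prdx6 (2.17), Gpx1 (1.36), Prdx1 (0.63) and Ccs (0.52) remained called as higher and Sod2 (-0.38) as lower in untreated mice (adjusted p = 2.98e-07, 6.07e-05, 0.00041, 0.00712 and 0.0181). Since the score did not overlap between genotypes at this age, that fit rests on extrapolation and cannot settle the part of cord level. The calls held without the 2 libraries with the most liver RNA. Without G93A untreated replicate 12 Prdx6 was at 2.14 and Gpx1 at 1.31, and without G93A OKN-007 replicate 15 they were at 1.99 and 1.17 in treated mice.

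**Figure D2:**
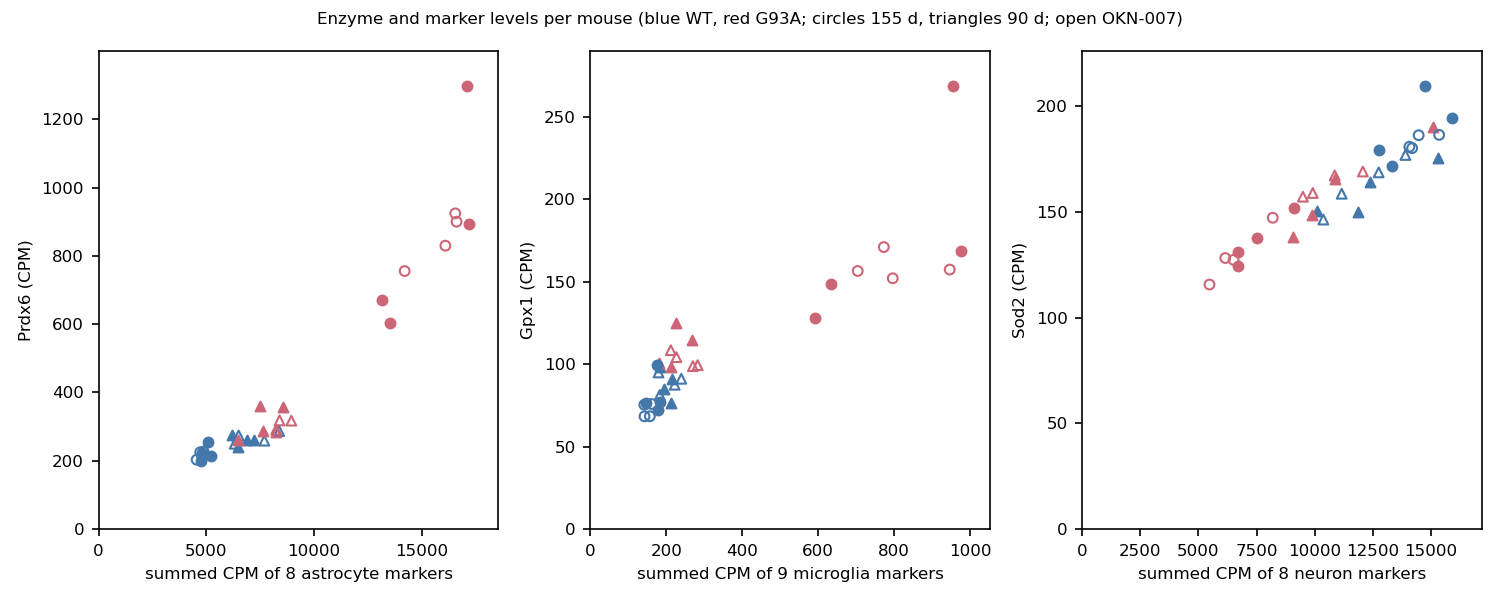
CPM of Prdx6, Gpx1 and Sod2 (vertical axes) in each mouse against the summed CPM of astrocyte, microglia and neuron markers (horizontal axes), with WT in blue, G93A in red, 155 days as circles, 90 days as triangles and OKN-007 as open symbols. The pairs were chosen after the values were seen. The 155-day G93A mice form a separate cluster in the Prdx6 and Gpx1 panels and lie at the low end of both axes in the Sod2 panel. No correlation was computed for this reason. Whether Sod2 goes with neuron markers apart from genotype was not tested.

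At 90 days, none of the 9 genes was called between untreated G93A and WT mice by edgeR, and 0 of 18899 genes tested were (0%), with 1126 at an unadjusted p under 0.05 and 16 called by DESeq2. Of the members, 4 had an unadjusted p under 0.05. Gpx1 was at 84.8, 98.6, 91.0 and 76.5 CPM in untreated WT and at 98.5, 125, 115 and 101 CPM in untreated G93A mice, a log2 difference of 0.35 ± 0.091 (adjusted p = 0.729). Gpx4 was at 415, 395, 407 and 397 CPM in WT and at 438, 570, 490 and 454 CPM in G93A mice (0.30 ± 0.097, adjusted p = 0.794). The Gpx4 groups did not overlap, and how many of all genes lacked overlap was not counted. Prdx6 was at 277, 262, 261 and 240 CPM against 287, 361, 356 and 262 CPM (0.31 ± 0.10, adjusted p = 0.794), and Cat differed by -0.19 ± 0.089 (adjusted p = 0.822). None of these differences holds after adjustment, and none of the 9 genes was called in the 90-day comparisons refitted without WT untreated replicate 3, the mouse with the most Schwann cell RNA, or without G93A OKN-007 replicate 13 or 14, those with the lowest Hox scores.

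In OKN-007 treated mice at 90 days, 0 of the 9 genes were called and 0% of all genes by edgeR, with 747 genes at an unadjusted p under 0.05 and 3 called by DESeq2. Gpx4, with 0.30 in untreated mice, was at -0.02 ± 0.097 (adjusted p = 0.9996) in treated mice. With both treatments averaged, 5 genes of all tested were called (0.0265%, 1250 at an unadjusted p under 0.05) and none was a member. Gpx1 came nearest, at 0.28 ± 0.065 (unadjusted p = 0.000388, adjusted p = 0.175), higher in G93A in both treatments, and DESeq2 called it at 0.28 (adjusted p = 0.0207). Prdx6 followed at 0.24 ± 0.071 (adjusted p = 0.363). At 90 days the summed microglia markers were at 182-215 CPM in untreated WT and 180-268 CPM in untreated G93A mice, and no marker of any list was called.

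**Figure D3:**
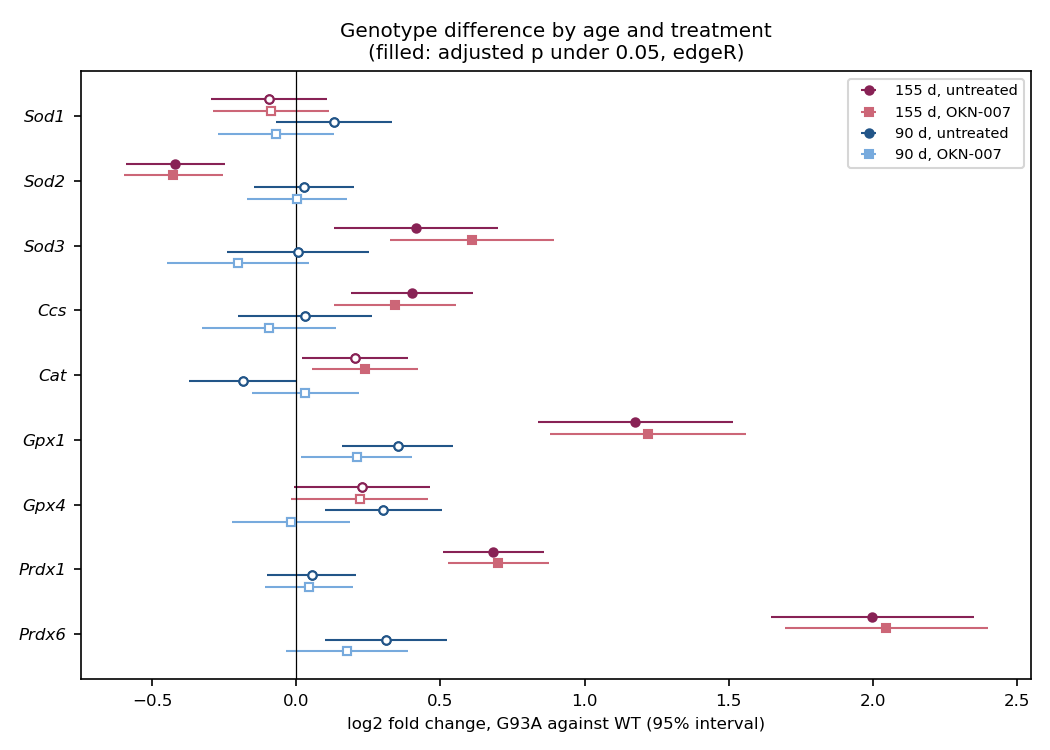
Log2 fold change of G93A against WT mice (horizontal axis, with 95% intervals) for the 9 genes, at 155 days (purple and red) and 90 days (blue), in untreated (circles) and OKN-007 treated mice (squares), with filled symbols for an adjusted p under 0.05. Prdx6 was at 2.0 and 2.05 at 155 days and at 0.31 and 0.18 at 90 days, and Sod2 was below 0 only in the 155-day comparisons, at -0.42 and -0.43.

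The difference of the untreated G93A change between the ages was tested directly in a fit of all 32 mice. It was called for 5 of the 9 genes, where 21.2% of 19829 genes tested were called. The G93A change was larger at 155 days by 1.68 ± 0.20 on the log2 scale for Prdx6 (adjusted p = 2.90e-07), by 0.81 ± 0.20 for Gpx1 (adjusted p = 0.00336), by 0.62 ± 0.11 for Prdx1 (adjusted p = 0.000147) and by 0.38 ± 0.13 for Cat (adjusted p = 0.0330). For Sod2 it was lower by -0.46 ± 0.12 (adjusted p = 0.00661). The Cat difference combined values on either side of 0, from -0.19 at 90 to 0.20 at 155 days, of which neither was called. It was lost when any of 9 of the 16 mice was left out (0.30 to 0.37, adjusted p from 0.052 to 0.107), among them WT replicates 1, 2 and 3 and G93A replicates 10 and 11 at 90 days, and WT replicates 2 and 4 and G93A replicates 10 and 12 at 155 days. Without WT replicate 3 at 90 days, the mouse with the most Schwann cell RNA, it was at 0.34 (adjusted p = 0.0808), and the other 4 genes remained called. For Ccs (0.36, adjusted p = 0.0939), Sod3 (0.40, adjusted p = 0.135), Sod1 (-0.24, adjusted p = 0.222) and Gpx4 (-0.09, adjusted p = 0.737) the difference between ages did not pass. A difference in handling between the ages cannot be told apart from age in a single group. Whether handling also differed between the genotypes of an age is not known from the labels. The caudal Hox score was without overlap between genotypes at 155 days and overlapped at 90 days. A difference in cord level at 1 age would enter this contrast, and its part was not tested.

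In WT mice alone, 7 of the 9 genes differed between 155 and 90 days with treatments averaged, where 44.2% of all genes tested were called. Sod2 was higher at 155 days by 0.21 ± 0.061 (adjusted p = 0.00687), and 6 genes were lower. Ccs fell by 0.43 (adjusted p = 3.3e-05), Gpx4 fell by 0.42 (adjusted p = 5.4e-05), Prdx6 fell by 0.26 (adjusted p = 0.0362), Sod1 fell by 0.24 (adjusted p = 0.00443), Prdx1 fell by 0.23 (adjusted p = 0.00163) and Cat fell by 0.21 (adjusted p = 0.00943) on the log2 scale. The call of Prdx6 was lost when any of 7 of the 16 mice was left out, untreated replicates 1 and 3 and OKN-007 replicates 5 and 6 at 90 days and untreated replicates 1 and 3 and OKN-007 replicate 8 at 155 days (adjusted p from 0.0511 to 0.0706), and that of Sod2 without WT untreated 90-day replicate 4 (0.15, adjusted p = 0.0539). Without untreated replicate 3 at 90 days, Prdx6 was at -0.26 (adjusted p = 0.0536) and the other 6 genes remained called. In the same comparison, 8 of 8 oligodendrocyte markers fell, from a summed 32940-40060 CPM in untreated WT mice at 90 days to 21390-23930 CPM at 155 days. The caudal Hox score ran from 2.5 to 4.106 in WT mice at 90 days and from 3.78 to 4.56 at 155 days. With this score as a covariate, Cat was at -0.14 and not called (adjusted p = 0.106 by edgeR). Whether the pieces came from different cord levels at the 2 ages was not tested. The part of the markers or of separate processing of the 2 ages in the members' differences was not tested either.

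OKN-007 changed none of the 9 genes in edgeR's test, in either genotype or at either age. In G93A mice at 155 days, 0% of genes were called (755 at an unadjusted p under 0.05, 0 by DESeq2), and the members' log2 differences ran from -0.15 for Gpx1 to 0.05 for Ccs. In these mice the 95% interval of the treatment difference ran from -21.5% to 25.4% for Prdx6, from -28.7% to 13.3% for Gpx1, from -14.5% to 12.9% for Sod1 and from -15.2% to 7.50% for Sod2. Differences within these bounds are not excluded by these data, with 4 mice per group. In WT mice at 155 days 0% were called (549 at an unadjusted p under 0.05, 2 by DESeq2), with the members between -0.22 for Sod3 and 0.10 for Ccs.

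At 90 days, 2 members had an unadjusted p under 0.05 for OKN-007 in G93A mice, where 0% of all genes were called by edgeR (1050 at an unadjusted p under 0.05, 0 by DESeq2). Sod3 was at 16, 19.9, 21 and 21.5 CPM in untreated and at 13.1, 18.7, 13.5 and 17.6 CPM in treated G93A mice, a log2 difference of -0.33 ± 0.12 (adjusted p = 0.837). Cat was at 104, 77.1, 87.1 and 101 CPM in untreated and at 107, 116, 115 and 100.3 CPM in treated G93A mice, a log2 difference of 0.23 ± 0.089 (adjusted p = 0.837). The groups overlapped for both genes. In WT mice at 90 days 0% were called (769 at an unadjusted p under 0.05, 0 by DESeq2), and no member had an unadjusted p under 0.05.

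Whether OKN-007 acted differently in the genotypes was tested as an interaction. At 155 days 0% of genes were called (437 at an unadjusted p under 0.05, 2 by DESeq2), and the largest member value was 0.20 ± 0.19 for Sod3 (adjusted p = 0.9998). At 90 days 0% were called (531 at an unadjusted p under 0.05, 0 by DESeq2), and Gpx4 was at -0.32 ± 0.14 (unadjusted p = 0.0309, adjusted p = 0.9999), since its G93A difference was 0.30 in untreated and -0.02 in treated mice.

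**Figure D4:**
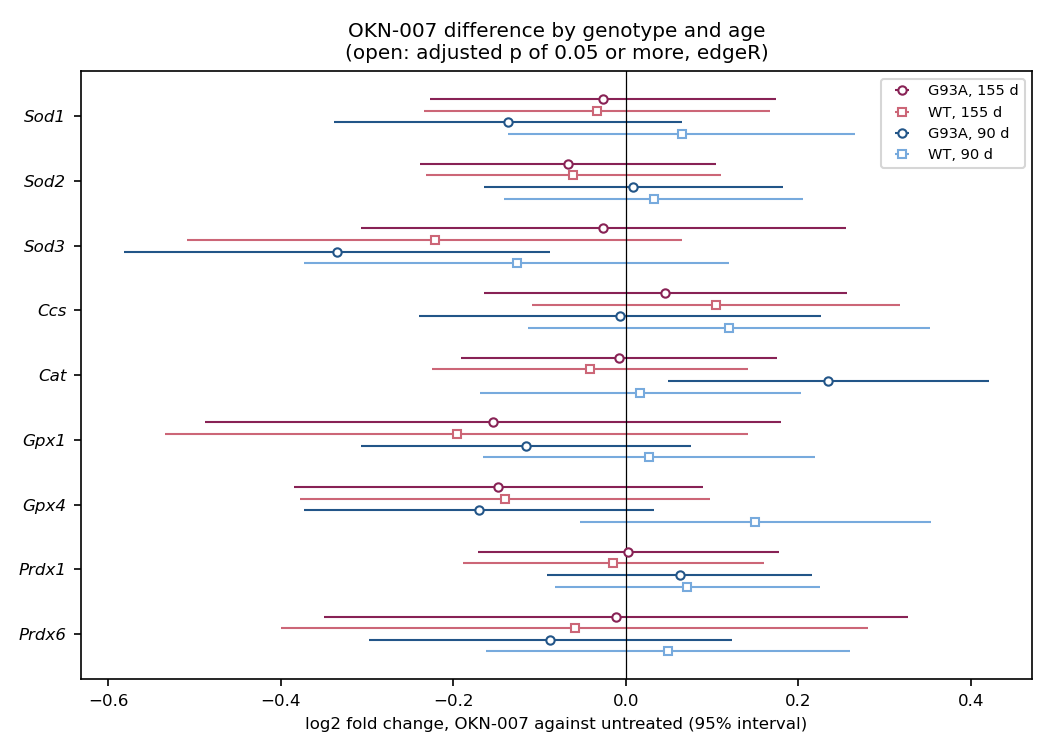
Log2 fold change of OKN-007 treated against untreated mice (horizontal axis, with 95% intervals) for the 9 genes in G93A (circles) and WT mice (squares) at 155 days (purple and red) and 90 days (blue). All symbols are open, since no adjusted p was under 0.05, and the intervals of Sod3 and Cat in G93A mice at 90 days are those that leave out 0.

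The genes around the 9 enzymes were followed in lists. Of the other glutathione peroxidases, 3 of 6 were tested at 155 days in untreated mice and all 3 rose, where 21.3% of all genes were called higher. Gpx8 (1.49 ± 0.17, adjusted p = 1.36e-06) and Gpx7 (1.43 ± 0.22, adjusted p = 4.14e-05), which sit in the endoplasmic reticulum, went from 4.01 to 10.9 and from 1.18 to 3.09 CPM, and the secreted Gpx3 rose by 0.93 ± 0.26 (adjusted p = 0.00717). Gpx2, Gpx5 and Gpx6 did not pass the filter on low counts. Of the other peroxiredoxins, 0 of 4 (Prdx2 to Prdx5) were called in untreated mice, with a range of -0.22 to 0.26. In treated mice the peroxiredoxin of the endoplasmic reticulum, Prdx4, rose by 0.47 ± 0.11 (adjusted p = 0.0013), where it was at 0.26 in untreated mice (adjusted p = 0.0534).

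Of 18 thioredoxin and glutathione genes, which reduce these enzymes, 4 rose and 4 fell in untreated mice, with a median log2 fold change of 0.06, a share called near the 39.5% of all genes. Txnip, which binds and inhibits thioredoxin, rose by 1.19 ± 0.30 (adjusted p = 0.00416), Txn1, thioredoxin itself, by 0.33 ± 0.0995 (adjusted p = 0.0135) and Sesn2, a stress-induced sestrin, by 0.32 ± 0.11 (adjusted p = 0.0207). The glutaredoxins Glrx (-0.39 ± 0.093, adjusted p = 0.00241), Glrx5 (-0.30 ± 0.090, adjusted p = 0.0117) and Glrx2 (-0.27 ± 0.061, adjusted p = 0.00161) fell. Of 8 genes for selenoprotein synthesis and selenium supply, on which Gpx1 and Gpx4 depend, 1 rose and 1 fell, a smaller share than the 39.5% of all genes, with Selenop, the selenium carrier, at 0.38 ± 0.087 (adjusted p = 0.00185) and Pstk, a kinase of selenocysteine tRNA loading, at -0.36 ± 0.091 (adjusted p = 0.00415).

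Of 9 copper delivery genes, 3 rose and 1 fell, again near the 39.5% called among all genes. The copper transporter genes Slc31a2 (0.75 ± 0.12, adjusted p = 7.52e-05) and Slc31a1 (0.35 ± 0.081, adjusted p = 0.00181) and the copper pump gene Atp7b (0.61 ± 0.19, adjusted p = 0.0149) rose, while Cox11, which brings copper to cytochrome c oxidase, fell (-0.54 ± 0.12, adjusted p = 0.00136). Atox1 was at 0.28 (adjusted p = 0.0521). Among genes of import into peroxisomes, where catalase works, Pex2 rose (0.34 ± 0.073, adjusted p = 0.00123) and Pex14 fell (-0.23 ± 0.081, adjusted p = 0.0287).

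Of the oxidases that make hydrogen peroxide, 14 of 18 were tested, 7 rose and 1 fell, where 39.5% of all genes were called, and the median log2 fold change was 0.26. Nox4, an NADPH oxidase, went from 0.658 ± 0.227 to 1.95 ± 0.67 CPM (1.61 ± 0.31, adjusted p = 0.000477), Paox, which oxidizes polyamines in peroxisomes, rose by 0.59 ± 0.14 (adjusted p = 0.00214) and Acox3, an acyl-CoA oxidase of peroxisomes, by 0.41 ± 0.069 (adjusted p = 0.000112). Dao, the D-amino acid oxidase, fell from 23.5 to 9.78 CPM (-1.22 ± 0.16, adjusted p = 7.12e-06). At 90 days and for OKN-007 at either age, none of the genes of these lists was called.

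**Figure D5:**
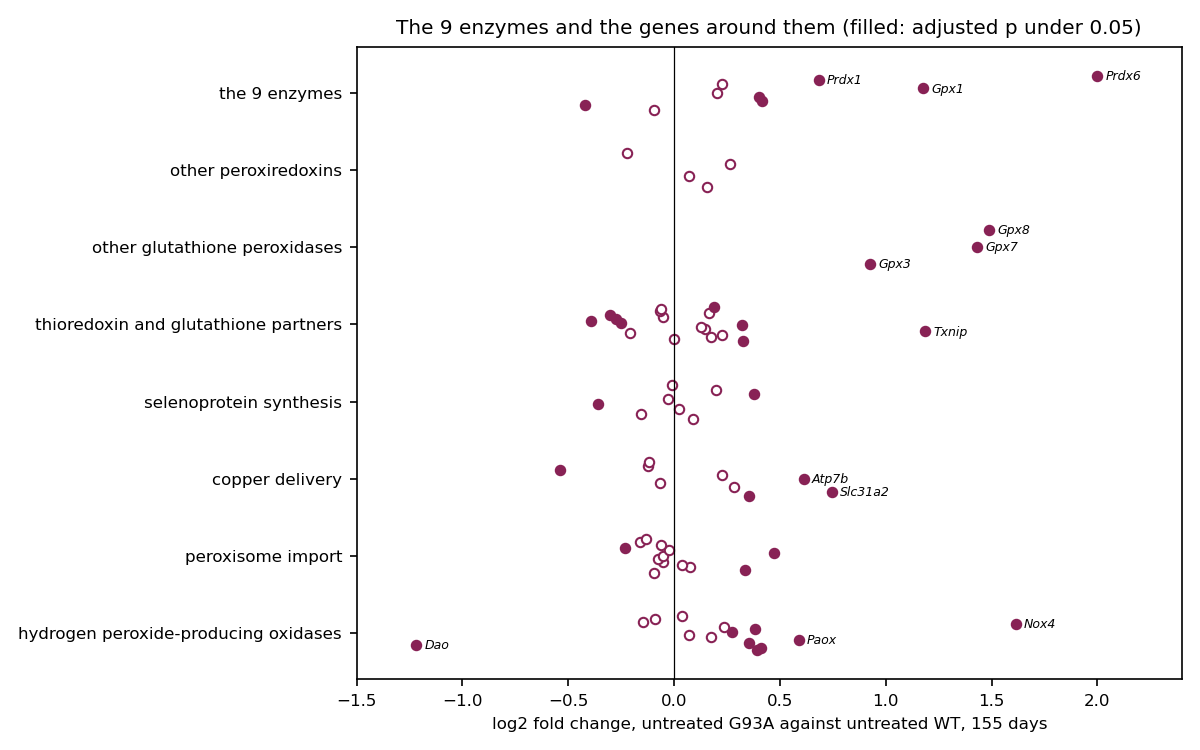
Log2 fold change of untreated G93A against untreated WT mice at 155 days (horizontal axis) for the 9 enzymes and for each tested gene of the lists around them (rows), with filled circles for an adjusted p under 0.05. All 3 other glutathione peroxidases that were tested lie to the right of 0.9, the other peroxiredoxins lie between -0.22 and 0.26, and Dao is the gene farthest to the left.

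Promoters were compared since Prdx1 and Gpx1 rose while Sod1 was not called. RefSeq's table on GRCm38.p6 held a promoter (250 bases before to 50 after the start) for 6 of the 9 genes, while Sod3, Ccs and Prdx6 had no entry. A search on both strands for TGACNNNGC, the core of the antioxidant response element bound by the factor Nrf2, and for TGACTCA, an AP-1 site, found the first in 12.4% and the second in 5.20% of all 32851 promoters of this length. Prdx1 held the first at position -133 on the minus strand, overlapping an AP-1 match at -131, and a further AP-1 match at -237. Sod1 held the first at -56 on the minus strand, and neither was found in the windows of Cat, Gpx1, Gpx4 and Sod2. The promoters of Prdx1 (chr4:116685349-116685648), Sod1 (chr16:90220512-90220811) and Gpx1 (chr9:108338830-108339129), all on the plus strand, follow with the matches in capitals. The 2 matches at -133 and -131 in Prdx1 form 1 run of capitals.
Prdx1: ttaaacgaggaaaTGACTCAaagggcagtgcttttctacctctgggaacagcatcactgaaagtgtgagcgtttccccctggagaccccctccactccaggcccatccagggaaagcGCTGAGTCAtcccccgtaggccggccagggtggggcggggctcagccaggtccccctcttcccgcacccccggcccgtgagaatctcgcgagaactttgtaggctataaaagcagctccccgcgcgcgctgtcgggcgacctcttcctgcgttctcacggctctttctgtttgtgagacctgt
Sod1: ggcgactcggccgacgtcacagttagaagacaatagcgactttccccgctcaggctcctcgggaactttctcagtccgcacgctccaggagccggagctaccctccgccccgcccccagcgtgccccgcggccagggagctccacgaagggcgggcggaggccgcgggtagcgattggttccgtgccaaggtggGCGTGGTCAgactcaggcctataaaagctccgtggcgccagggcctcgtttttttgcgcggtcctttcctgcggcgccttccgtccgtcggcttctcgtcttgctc
Gpx1: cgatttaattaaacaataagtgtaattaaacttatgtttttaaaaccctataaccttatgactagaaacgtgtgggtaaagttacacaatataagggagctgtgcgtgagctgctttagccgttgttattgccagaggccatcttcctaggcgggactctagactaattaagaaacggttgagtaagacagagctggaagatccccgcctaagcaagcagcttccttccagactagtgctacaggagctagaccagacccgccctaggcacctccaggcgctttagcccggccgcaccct

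A match of letters is a description and not a bound site, and these data hold no measure of binding. The window of Sod1 was at 66.7% G and C, that of Prdx1 at 60.7% and that of Gpx1 at 47.0%, where the median over all promoters was 52.7%.

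For each called member, the genes with the most similar pattern over the 8 groups were found by the root mean square difference of group means of log2(CPM + 1), each gene centred on its own mean, among 19828 genes. Nearest to Prdx6 were Parp3 (0.0375), Slc14a1 (0.0394), the urea transporter gene, and Tmem176b (0.0448), with 51 genes within 0.1. Nearest to Gpx1 were Cmtm7 (0.0679), Cst3 (0.0706) and Nlrp1b (0.0718), with 29 genes within 0.1. Prdx1 was nearest to Rhoa (0.0284), Hadh (0.0286) and Gnb4 (0.0292), and Sod3 to Trpv4 (0.0591), Gstm1 (0.0629) and Gm10575 (0.064). Sod2 was nearest to Gm3636 (0.0236), Ube2n (0.0304) and Car10 (0.0316), with 1175 genes within 0.1, and Ccs to Jtb (0.0122), Miip (0.0295) and Eif2s2 (0.0318). Within 0.1 lay 678 genes for Ccs, 469 for Prdx1 and 91 for Sod3. The root mean square of a gene's own centred group means was 0.168 for Ccs, 0.174 for Sod2 and 0.201 for Sod3. It was 0.226 for Prdx1, 0.42 for Gpx1 and 0.748 for Prdx6. A fixed limit of 0.1 tends to take in more genes where a gene's own changes are small. These counts therefore do not show how distinctive a pattern is.

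Near-identical copies could take reads of a member. The pseudogene Gpx4-ps2 held 233 to 467 counts per mouse, where Gpx4 held 7316 to 13171, and Prdx6b and Prdx6-ps2 held at most 4 and 3 counts. Sod1 overlaps Scaf4 on the opposite strand, with 0 bases of shared exon.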

How the data were processed

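Poly(A) RNA of spinal cord was sequenced with a stranded kit, and the authors deposited 1 table of gene counts of reads, not normalized. The study's methods name Trimmomatic, STAR, HTSeq, GENCODE M10 and GRCm38, while the submitters' processing notes list FastQC, STAR, featureCounts, edgeR, hg38, GRCm39 and mm39. The table holds 820 gene IDs of a series with 0 members in GENCODE M21, so its annotation is later than the one in the methods, and a different build could shift counts of genes whose models changed. GENCODE M21 (GRCm38) paired 41218 of 42524 IDs (96.9%) with symbols, and positions are given on that build.

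Counts were analysed with edgeR 4.0.16 in R 4.3.3 (filterByExpr, TMM, estimateDisp, glmQLFit, glmQLFTest, two-sided, no covariates), for each age in 1 fit of 16 mice in 4 groups, and with all 32 mice for differences between ages. SE is the log2 fold change divided by the square root of F. CPM used TMM factors over all 32 mice. Per-length levels used coding transcripts of GENCODE M21, and the longest and shortest were compared. The median depth was 26658755 counts. No pair of libraries in a group was identical (closest chi-square 3.80 per gene), and since the labels name mice by number only, p-values measure the spread between these samples. The procedure was tested on simulated data.

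The members and lists were chosen with earlier results of these data known. Named genes are the 9 members, for each pathway list up to 3 called genes with the largest rise and up to 3 with the largest fall in untreated mice at 155 days, the 3 most similar genes of each called member, and copies of members. Prdx2 to Prdx5, Atox1 and Gfap were named after their values were seen. Marker scores used log2(CPM + 1).

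Alternatives were DESeq2 1.42.0, RLE factors, library totals, no filter on low counts, only the compared groups, all 32 mice in 1 fit, the caudal Hox score as a covariate, a replicate block and leaving out each mouse in turn. The human SOD1 transgene was not analysed here. The result of 1 gene of the peroxisome import list, and the counts over that list, are not reported here.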

Additional observations from a re-analysis of the deposited data

Results flagged for a closer look

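The untreated G93A change differed between 155 and 90 days, by the test of that difference, for Prdx6 (1.68 on the log2 scale), Gpx1 (0.81), Prdx1 (0.62), Cat (0.38) and Sod2 (-0.46), with adjusted p-values by edgeR's quasi-likelihood test of 2.90e-07, 0.00336, 0.000147, 0.0330 and 0.00661. In 72 groups of 4 mice (9 genes in 8 groups), 3 held a mouse set far apart from the other 3, judged by its gap against the range of its group at a limit that chance passes in about 1 of 20 groups, or 3.6 of 72. Gpx4 was at 425 CPM in WT untreated replicate 2 at 155 days, with the next mouse at 306 CPM, and the same mouse was the highest of its group in 7 of the 9 genes. Sod1 was at 282 CPM in WT OKN-007 replicate 8 at 90 days, with the next mouse at 349 CPM. Ccs was at 32.5 CPM in G93A OKN-007 replicate 15 at 90 days, with the next at 29.9 CPM. G93A untreated replicate 11 at 155 days was the highest of its group in 6 of the 9 genes. The same held for WT OKN-007 replicate 7 at 155 days and G93A untreated replicate 10 at 90 days.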

How the results depend on the processing

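The number of the 9 genes called stayed within 1.5 times the value given in 229 of 230 combinations of comparison and alternative, and in none did a called gene turn direction. The exception was DESeq2 with treatments averaged at 90 days, which called 1 gene, Gpx1. This measure is coarse. Many combinations came from comparisons with 0 members called, where 0 again counted as unchanged. Where 6 or 7 of the 9 were called, a rise could not pass the limit, so only a fall could. Prdx6, Gpx1, Prdx1, Ccs and Sod2 were called in both genotype comparisons at 155 days under every alternative run, and the calls of Sod3, Cat and Gpx4 were those that changed. Gpx4 was called in treated mice with only the 2 compared groups (0.21, adjusted p = 0.0115), and Ccs in the difference between ages with the Hox score (0.45, adjusted p = 0.0383). Cat was not called there with no filter (adjusted p = 0.0891) or the Hox score (adjusted p = 0.135). Ccs was called there without WT untreated replicate 2 at 90 days, WT untreated replicate 2 at 155 days or G93A untreated replicate 9 at 155 days (adjusted p from 0.0467 to 0.0499). In the WT age comparison, Cat was not called with the Hox score (adjusted p = 0.106), and Gpx1 was called without WT untreated replicate 4 at 90 days (adjusted p = 0.0336) or replicate 2 at 155 days (adjusted p = 0.0288). Counts over all genes moved by over 1.5 times only where few or none were called: with no filter 3 to 110 genes, with DESeq2 2 to 66, with all 32 mice 1 to 21, with only 2 groups 3, and without 1 mouse 1 to 54, the last with G93A untreated 90-day replicate 12 left out of the averaged comparison. With no filter, the median of all genes in the difference between ages was -0.21, and 4 members were called there. Replicate numbers are shared only between the ages, whose mice are different animals, and same-numbered mice did not deviate together (correlations of -0.221 to 0.26 in 16 pairs, 4 over 0.1). With a replicate block, 5 of the 9 genes were called in the difference between ages and 8 in the WT age comparison, where Gpx1 was added (-0.21, adjusted p = 0.0378). Depth limits little here, since the lowest member count was 318.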
